A study of Homo sapiens with 9 samples.

Results

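The genes described are 9 adhesion molecules of the lymphocyte surface: the integrin ligands ICAM1, ICAM2 and ICAM3, the paired immune-synapse ligands CD58 and CD48, the hyaluronan receptor CD44, and the integrin chains ITGAL, ITGB2 and ITGA4. They were taken by gene symbol from a table of read counts with 60656 genes, in which each of the 9 had 1 entry. RNA had been sequenced from RIVA cells, a human line grown from an ABC-type diffuse large B-cell lymphoma (ABC-DLBCL), which carried a doxycycline-inducible lentiviral construct with no insert (vector), with the truncated BCL10 S136X or with the missense mutant BCL10 R58Q. Each of the 3 groups had 3 replicates, and all 9 libraries came from cells given doxycycline for 24 h, at 200 ng/mL in the treatment protocol and in the study's methods (the sample characteristics write 200 ng/uL). The cells kept their own BCL10 in every group, so both mutants were expressed over the endogenous gene, and the vector cells are listed as BCL10 wild type. No library of cells that overexpressed wild-type BCL10 was analysed here, and all 3 groups come from 1 cell line.

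Adhesion molecules let a B cell hold on to other cells and to tissue. ICAM1, ICAM2 and ICAM3 are immunoglobulin-type ligands of the integrin LFA-1, which is built from the alpha chain ITGAL and the beta chain ITGB2. CD58 on a target cell binds CD2 on T and NK cells, CD48 binds CD244 and, weakly, CD2, and loss of CD58 is a known route by which B-cell lymphomas escape these cells. CD44 binds hyaluronan of the extracellular matrix, and ITGA4 pairs with ITGB1 (VLA-4) or ITGB7 to bind VCAM1, fibronectin or the gut addressin MADCAM1. BCL10 is an adaptor protein that carries B-cell receptor signals to NF-kB, and ICAM1, CD44 and CD58 are often listed among genes that respond to that pathway.

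The libraries held 28047713 to 33122267 counts each (median 32185418). BCL10 itself had 885 to 1268 counts in the vector libraries, 9838 to 14293 in S136X and 10117 to 10596 in R58Q. This checks the labels of vector against mutant only, since counts per gene do not tell S136X from R58Q. All 8 B-cell markers examined were above 1 CPM (read counts relative to library size, TMM-scaled) in every library. Summed levels of other markers were 4.51 to 9.19 CPM for 7 T-cell genes, at most 0.457 CPM for 4 NK-cell genes, at most 0.851 CPM for 7 myeloid genes and 41.5 to 72.1 CPM for 5 epithelial genes, of which EPCAM made up 32.9 to 54.1 CPM. The summed level of 6 fibroblast or endothelial genes moved with the groups, from 6.10 to 9.36 CPM in vector to 12.5 to 18.3 in S136X and 12.8 to 18.96 in R58Q. This rise was that of COL1A1, with means of 3.85, 12.1 and 13.2 CPM in vector, S136X and R58Q. COL1A2 went the other way (3.19, 2.15 and 1.35 CPM), and PDGFRB stayed near its vector level (0.718, 0.682 and 0.751 CPM). DCN reached at most 0.603 CPM, and VWF and CDH5 had 0 counts in every library. The part of these transcripts in the adhesion results was not tested. The names of the deposited columns carry 1 date for the vector and S136X libraries and another for all R58Q libraries, so date and R58Q cannot be told apart in any result that involves R58Q. In bulk RNA, a change in the share of cells that express a gene cannot be told apart from a change in RNA per cell.

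Promoter DNA of these genes is shown because BCL10 signals to NF-kB and the members did not move alike. RefSeq promoter windows (GRCh38.p14) were at hand for 6 of the 9 genes, ICAM1, ICAM3, CD44, CD58, CD48 and ITGA4, and the 250 bases before each start were searched on both strands for 5 motifs. The motifs were the kappaB consensus of p50, the kappaB consensus of p65 and c-Rel, GAS (TTCNNNGAA, the STAT site), AP-1 (TGANTCA) and ISRE, the interferon response element. ICAM1 held overlapping p65 and c-Rel matches, the first at bases 187 to 178 before its start, and a GAS match at bases 75 to 67. ICAM3 held a p50 match at bases 56 to 47 before the first of its 3 listed starts, and its other windows held none. The windows of CD44, CD58, CD48 and ITGA4 held no match to any of the 5. These windows precede the start that RefSeq lists, and those of CD44 and ITGA4 lie wholly and mostly inside the gene as the count table places it. The other ICAM3 windows lie wholly inside ICAM3 as so placed. The sites are printed on the strand of the gene with the match in capitals, ICAM1 at chr19:10270923-10270952 and chr19:10271035-10271064 on the plus strand and ICAM3 at chr19:10339661-10339690 on the minus strand.
ICAM1 kappaB: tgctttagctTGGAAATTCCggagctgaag
ICAM1 GAS: ggcgcgaggtTTCCGGGAAagcagcaccgc
ICAM3 kappaB: ccgtcgcagtGGGAGGCCCCgccttttccc

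The window of CD58, a gene among the largest increases below, is given for contrast at chr1:116571040-116571276 on the minus strand, 237 bases with 72.6% G and C that end next to the listed gene and have no capitals because no motif matched.
CD58 upstream: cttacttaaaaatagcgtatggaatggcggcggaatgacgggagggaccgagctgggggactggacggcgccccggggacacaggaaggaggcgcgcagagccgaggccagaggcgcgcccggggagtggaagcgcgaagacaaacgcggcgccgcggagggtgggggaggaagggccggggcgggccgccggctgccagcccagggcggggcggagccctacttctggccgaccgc
Among 35116 windows of the same length, either kappaB consensus was present in 15.1%, GAS in 6.57%, AP-1 in 6.57% and ISRE in 3.02%. A match is a run of letters and not evidence of binding, and a window without a match says nothing of sites elsewhere.

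To order the genes by abundance, CPM was divided by the length of all annotated exons of each gene, giving CPM per kb. These lengths exceed the longest annotated transcript unequally (10004 against 5732 bases for CD44, 2950 against 2491 for ICAM3, 3243 against 1334 for ICAM2). The order of the genes, and which ranges overlap, can therefore change with the length chosen. ICAM1 was the most abundant of the 9 in each group, with a mean of 56.2 CPM per kb in vector, 127 in S136X and 160 in R58Q (n = 3 each). In vector cells it was followed by ICAM3 at 18.9 and CD44 at 12.9, and the ranges of these 3 genes did not overlap. ITGAL (4.67), CD58 (4.35) and ICAM2 (3.66) came next, and neighbours among them overlapped. CD48 (2.53) and ITGB2 (2.47) overlapped as well, and ITGA4 was lowest at 0.951. On this scale CD44 and CD58 moved ahead of ICAM3 in the mutant cells, to 48.9 and 21.5 in S136X and to 91.5 and 30.3 in R58Q. CD58 and ICAM3 overlapped in S136X, where ICAM3 ran from 17.6 to 23.1 CPM per kb, but not in R58Q, where the lowest CD58 library stood at 24.9 and the highest ICAM3 library at 24.8. Below ICAM3, each gene of both mutant groups overlapped with the next in the order, except that ITGA4 lay below ICAM2 without overlap in R58Q.

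**Figure D1:**
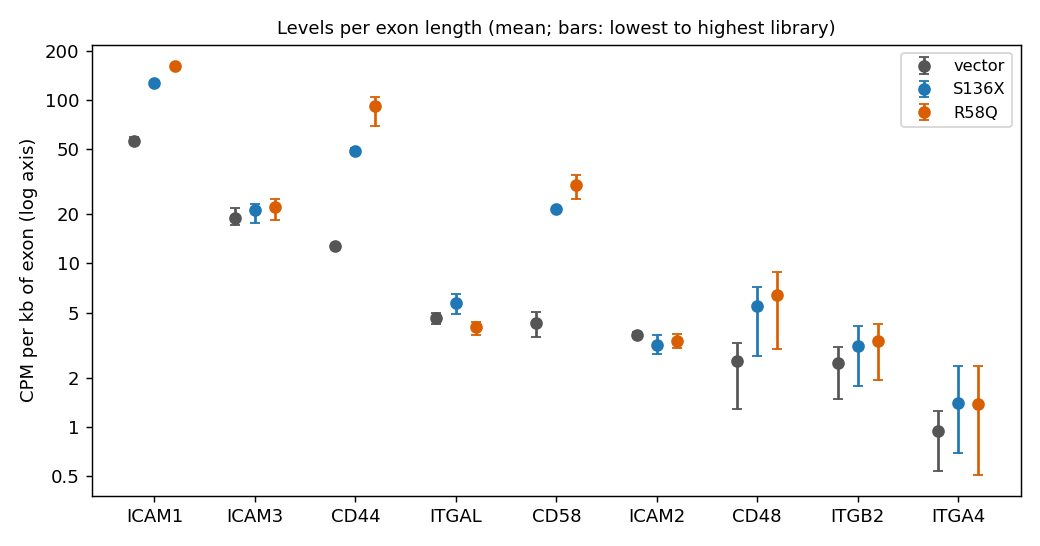
Level of each adhesion gene in CPM per kb of exon (y axis, log scale) for vector, S136X and R58Q, with points at the mean of 3 libraries and bars from the lowest to the highest library. ICAM1 is highest in each group (56.2, 127 and 160). On this scale CD44 and CD58 rise past ICAM3 in the mutant cells, while the integrin chains stay below 7 CPM per kb.

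Each mutant was compared with vector to ask which genes the 2 constructs change, and the mutants were compared with each other. All 9 adhesion genes passed the filter on low counts in each comparison. A gene was called when edgeR's quasi-likelihood test gave a Benjamini-Hochberg adjusted p under 0.05 over all genes tested and the change was at least 1.5-fold. In S136X against vector ICAM1, CD44 and CD58 rose and 0 of the 9 fell, beside a background of 3.87% of all 15530 genes called and 2.05% called higher. In R58Q against vector the same 3 genes rose and 0 fell, beside 7.63% of 15435 genes called and 4.09% called higher. All 3 libraries of each mutant lay above the vector libraries for these 3 genes in both comparisons, as for 15.3% and 20.7% of all genes. The vector libraries serve both comparisons, so they are not independent of each other. The median log2 change of the 9 was 0.56 in S136X and 0.53 in R58Q, against -0.02 and -0.03 over all genes tested. With the replicate number as a block, a fit that compares libraries of the same number, CD48 was called as well in both, so that 4 of 9 rose, beside 6.53% and 10.7% of all genes called in that fit. The study listed ICAM1, CD44, CD58 and CD48 in enrichment tables chosen on these same libraries, so their direction here is not independent evidence.

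**Figure D2:**
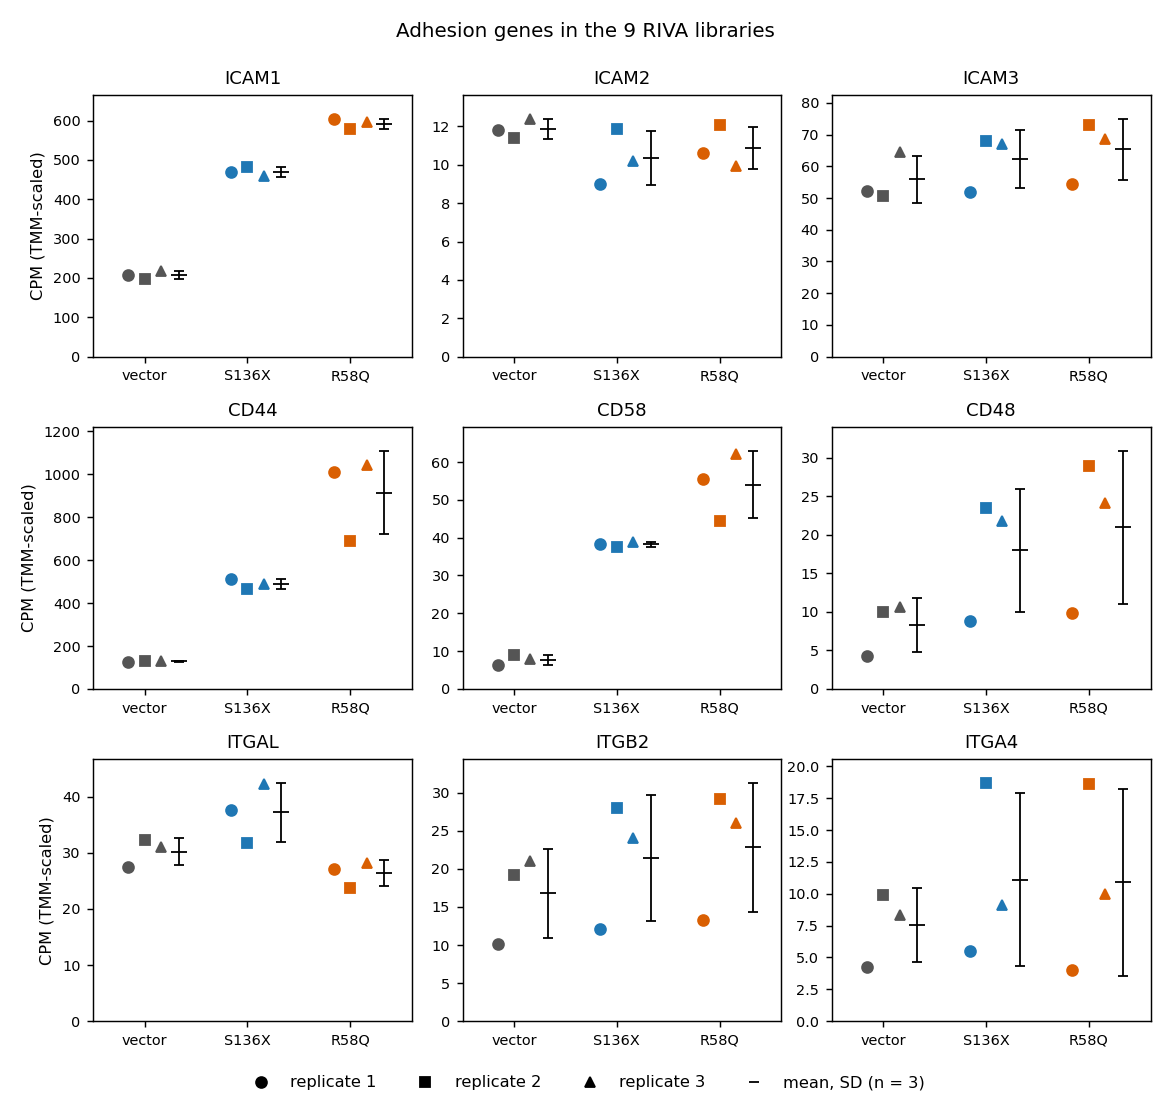
CPM of the 9 adhesion genes in each library (y axis, linear from 0) by group, with circles, squares and triangles for replicates 1, 2 and 3 and a bar for the mean and SD (n = 3). ICAM1, CD44 and CD58 step up from vector to S136X and to R58Q without overlap, whereas in CD48, ITGB2 and ITGA4 replicate 1 is the lowest of every group.

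ICAM1 (ENSG00000090339.9, chr19:10271093-10286615 on GRCh38) rose in both mutants with little spread between replicates. Its level was 208, 198 and 219 CPM in vector replicates 1, 2 and 3, 469, 483 and 458 CPM in S136X and 603, 578 and 595 CPM in R58Q. No library of one group overlapped another group, and the coefficient of variation within a group was 4.96%, 2.64% and 2.18%. The change over vector was 2.26-fold in S136X (log2 1.18 ± 0.06 SE, edgeR adjusted p = 4.13e-05) and 2.84-fold in R58Q (log2 1.51 ± 0.06 SE, edgeR adjusted p = 1.76e-05). The gene is annotated opposite an antisense transcript, AC011511.5, over 22% of its exon bases, which had 13 to 51 counts where ICAM1 had at least 6531.

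ICAM2 and ICAM3, the constitutive ligands of LFA-1, did not pass the test in either mutant. ICAM2 (ENSG00000108622.11, chr17:64002594-64020634), found on endothelium and lymphocytes, was at 11.8, 11.4 and 12.4 CPM in vector, 9.02, 11.9 and 10.2 in S136X and 10.6, 12.1 and 9.91 in R58Q. The groups overlapped, and the 95% intervals of the log2 change, -0.47 to 0.08 in S136X and -0.38 to 0.13 in R58Q, did not reach a change of 1.5-fold in either direction. ICAM3 (ENSG00000076662.10, chr19:10333776-10339661), the resting leukocyte ligand, was at 52.4, 50.8 and 64.5 CPM in vector, 51.8, 68.0 and 67.1 in S136X and 54.5, 73.0 and 68.7 in R58Q. Its intervals were -0.12 to 0.44 and -0.06 to 0.52 on the log2 scale, again short of 1.5-fold. An antisense transcript, AC114271.1, covers 71.2% of the exon bases of ICAM3 and had 185 to 250 counts, at most 14.3% of those of ICAM3. Whether reads were counted by strand is not given in the sources used here, so some ICAM3 reads may belong to it, and likewise for ICAM2 and PRR29, which share 26.8% of the exon bases of ICAM2 and where PRR29 had 12 to 28 counts. Per ICAM2 read there were 17.4 to 17.6 ICAM1 reads in the vector libraries, 40.7 to 52.0 in S136X and 47.9 to 60.0 in R58Q.

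CD58 (ENSG00000116815.16, chr1:116514534-116571039), the ligand of CD2, had the largest fold of the 9 in S136X and nearly the same fold as CD44 in R58Q. It was at 6.30, 8.95 and 8.01 CPM in vector (210 to 295 counts), 38.2, 37.6 and 38.9 CPM in S136X (1108 to 1211 counts) and 55.6, 44.4 and 62.1 CPM in R58Q (1339 to 2010 counts). Every mutant library was over 4 times the highest vector library. The change was 4.94-fold in S136X (log2 2.30 ± 0.13 SE, edgeR adjusted p = 5.15e-05) and 6.96-fold in R58Q (log2 2.80 ± 0.16 SE, edgeR adjusted p = 4.56e-05). By fold, CD58 had rank 30 from the top of 15530 genes in S136X and rank 54 of 15435 in R58Q. NAP1L4P1, a processed pseudogene annotated in an intron of CD58 on the same strand, had 22 to 40 counts in vector, 152 to 202 in S136X and 221 to 326 in R58Q.

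CD48 (ENSG00000117091.10, chr1:160678746-160711831), the related GPI-anchored ligand of CD244, was higher in the mutants within each replicate number. It was at 4.23, 10.01 and 10.6 CPM in vector replicates 1, 2 and 3 (141, 330 and 362 counts), 8.85, 23.4 and 21.8 CPM in S136X and 9.82, 28.9 and 24.1 CPM in R58Q. Replicate 1 of each mutant lay among the vector libraries, so the groups overlapped. Without the block the log2 change was 1.12 ± 0.40 SE in S136X (edgeR adjusted p = 0.118) and 1.33 ± 0.43 SE in R58Q (edgeR adjusted p = 0.059), neither called. Between libraries of the same number it was 2.05- to 2.34-fold in S136X and 2.27- to 2.89-fold in R58Q, higher in 3 of 3 pairs in each, as were 25.9% and 29.7% of all genes. With the block the log2 change was 1.11 ± 0.09 SE (edgeR adjusted p = 3.86e-05) and 1.32 ± 0.10 SE (edgeR adjusted p = 2.48e-05), both called. Without the block, leaving out the low replicate 1 of S136X alone gave a call (log2 1.44, edgeR adjusted p = 0.0165), as did leaving out that of R58Q (log2 1.69, edgeR adjusted p = 0.00578). Leaving out their low vector partner instead gave log2 0.81 (edgeR adjusted p = 0.2) and 1.03 (edgeR adjusted p = 0.11), and no other library left out gave a call. CD2, the receptor of CD58, had at most 1 count in a library, and CD244, the receptor of CD48, had 0 counts in every library, which allows up to 3.

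CD44 (ENSG00000026508.20, chr11:35138882-35232402) rose with the largest fold of the 9 in R58Q and separated the 3 groups. It was at 127, 131 and 128.5 CPM in vector, 511, 465 and 491 in S136X and 1009.9, 691 and 1044 in R58Q. The vector libraries varied by 1.82% (coefficient of variation) and the R58Q libraries by 21.3%, with replicate 2 of R58Q below the other two. The change over vector was 3.80-fold in S136X (log2 1.93 ± 0.06 SE, edgeR adjusted p = 2.64e-06) and 7.10-fold in R58Q (log2 2.83 ± 0.15 SE, edgeR adjusted p = 3.6e-05). By fold it had rank 49 of 15530 genes in S136X and rank 53 of 15435 in R58Q. CD44 is known for its many spliced forms, and with 39 annotated transcripts counted together here the standard form and the variant forms were not told apart.

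The chains of LFA-1 did not pass the test against vector. ITGAL (ENSG00000005844.18, chr16:30472719-30523185), its alpha chain, was at 27.5, 32.2 and 30.96 CPM in vector, 37.6, 31.8 and 42.2 in S136X and 27.1, 23.7 and 28.3 in R58Q. Replicate 2 of S136X lay among the vector libraries, and the log2 change was 0.30 (95% interval 0.04 to 0.56, edgeR adjusted p = 0.133) in S136X and -0.20 (-0.41 to 0.02, edgeR adjusted p = 0.171) in R58Q. ITGB2 (ENSG00000160255.18, chr21:44885953-44931989), the beta chain that other leukocyte integrins share, was at 10.1, 19.2 and 21.04 CPM in vector, 12.1, 28.01 and 24.1 in S136X and 13.2, 29.2 and 26.0 in R58Q. The groups overlapped, and the log2 change was 0.35 (95% interval -0.40 to 1.1) in S136X and 0.44 (-0.31 to 1.19) in R58Q. Without the block this leaves room for changes past 2-fold. With the block the intervals of ITGB2 were 0.14 to 0.54 and 0.24 to 0.62, short of 2-fold. ITGB2 was higher in 3 of 3 same-numbered pairs in each mutant, as were 25.9% and 29.7% of all genes. With the block, the adjusted p of edgeR for ITGB2 was 0.0194 in S136X and 0.004 in R58Q and that for ITGAL was 0.0477 in S136X, all at less than 1.5-fold and so not called. There were 1.47 to 2.71 ITGAL reads per ITGB2 read in vector, 1.13 to 3.10 in S136X and 0.812 to 2.05 in R58Q, overlapping ranges in which replicate 1 was highest each time.

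ITGA4 (ENSG00000115232.14, chr2:181457202-181538940), the alpha chain of VLA-4, was the least abundant of the 9 per length and, in the mutant groups, the most variable (coefficient of variation 61.3% and 67.5%, against 38.6% in vector). It was at 4.29, 9.92 and 8.33 CPM in vector, 5.52, 18.7 and 9.1 in S136X and 4.02, 18.7 and 10.01 in R58Q. Replicate 2 was the highest of every group and replicate 1 the lowest. The log2 change was 0.56 (95% interval -0.41 to 1.54) in S136X and 0.53 (-0.60 to 1.67) in R58Q, and it turned to -0.026 without replicate 2 of S136X and to -0.10 without replicate 2 of R58Q. With the block the log2 change of ITGA4 was 0.50 in S136X (95% interval 0.17 to 0.83, edgeR adjusted p = 0.0353). In R58Q the block gave ITGA4 0.42 (0.04 to 0.80, edgeR adjusted p = 0.0804), and neither was called. Its partner ITGB1 had 30.6 CPM per kb in vector against 24.5 in S136X and 22.6 in R58Q, a log2 change of -0.32 (edgeR adjusted p = 0.0423) and -0.44 (edgeR adjusted p = 0.00791), both under 1.5-fold. ITGB7, the other partner, had log2 changes of -0.49 (edgeR adjusted p = 0.0161) and -0.41 (edgeR adjusted p = 0.0243), also under 1.5-fold. ITGB7 shares 42.1% of its exon bases with ZNF740 on the opposite strand, which had more counts (1476 to 2154), so its values are uncertain.

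**Figure D3:**
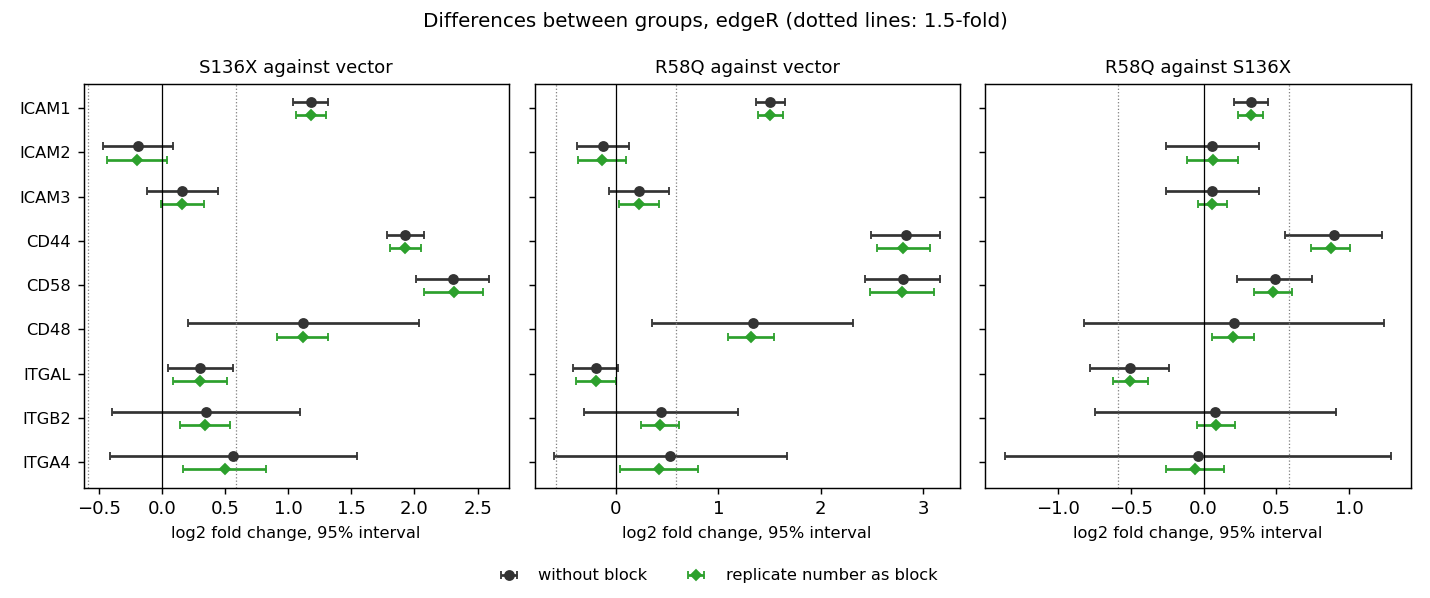
Log2 fold change of each adhesion gene with its 95% interval (x axis) in the 3 comparisons, from edgeR without a block (circles) and with replicate numbers as a block (diamonds), and with dotted lines at 1.5-fold. ICAM1, CD44 and CD58 lie beyond the dotted lines against vector in both fits, and the intervals of CD48, ITGB2 and ITGA4 narrow with the block.

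Between the mutants, all libraries of ICAM1, CD44 and CD58 were higher in R58Q than in S136X and all those of ITGAL were lower. Over all 15195 genes tested, 9.67% had R58Q libraries that all lay above S136X and 7.59% had all below. Within same-numbered pairs 6 of the 9 were higher in R58Q in 3 of 3 pairs, against 25.4% of all genes, which adds CD48 (1.11- to 1.24-fold), ICAM3 (1.02- to 1.07-fold) and ITGB2 (1.04- to 1.09-fold). ITGAL was lower in 3 of 3 pairs, against 20.9% of all genes. Without the block 0 of the 9 were called (0.434% of all genes were). CD44 was 1.86-fold higher in R58Q (log2 0.89, 95% interval 0.56 to 1.22), with an edgeR adjusted p of 0.05004, just past the threshold. With the block CD44 was called (log2 0.87 ± 0.06 SE, edgeR adjusted p = 1.38e-08), 1 of 9 beside 2.94% of all genes. DESeq2 called it too (log2 0.89, adjusted p = 5.93e-08), and so did edgeR without replicate 2 of R58Q (log2 1.06, adjusted p = 0.00172).

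ICAM1 was 1.25-fold higher in R58Q (log2 0.32, 95% interval 0.21 to 0.44, edgeR adjusted p = 0.0467), past the test but under 1.5-fold. CD58 was 1.40-fold higher (log2 0.49, 95% interval 0.23 to 0.75, edgeR adjusted p = 0.129), with an edgeR adjusted p of 2.88e-05 with the block. Without replicate 2 of R58Q, its lowest R58Q library, CD58 was called (log2 0.61, edgeR adjusted p = 0.0259). ITGAL was 1.42-fold lower in R58Q (log2 -0.51, 95% interval -0.78 to -0.24, edgeR adjusted p = 0.129), and with the block its edgeR adjusted p was 4.49e-06 at the same size. The other 5 genes had log2 differences between -0.04 and 0.21, with intervals that ran from -0.26 to 0.38 for ICAM2 and ICAM3 and as wide as -1.36 to 1.29 for ITGA4. With the block the intervals were -0.12 to 0.24 for ICAM2, -0.04 to 0.16 for ICAM3, 0.06 to 0.34 for CD48, -0.04 to 0.21 for ITGB2 and -0.26 to 0.14 for ITGA4, all short of 1.5-fold. These differences share the confounding of R58Q with the date named above, and BCL10 itself was 1.24-fold lower in R58Q than in S136X (log2 -0.31, edgeR adjusted p = 0.363, overlapping libraries), with an edgeR adjusted p of 0.000189 in the fit with the block.

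Replicate 1 was low for CD48, ITGB2 and ITGA4, and ICAM3 followed them in part. In all 3 groups replicate 1 was the lowest library for CD48, ITGB2 and ITGA4, 3 of the 9 genes, which was so for 12.9% of 15860 genes. For ICAM3 replicate 1 was the lowest library in 2 of the 3 groups. The ratio of replicate 1 to the mean of replicates 2 and 3 was 0.410, 0.391 and 0.370 for CD48 in vector, S136X and R58Q, and 0.504, 0.466 and 0.479 for ITGB2. For ITGA4 it was 0.470, 0.398 and 0.281, and for ICAM1 it was 0.996, 0.997 and 1.03. After the group means were taken out, Pearson's r over the 9 libraries was 0.997 for CD48 with ITGB2, 0.919 for ITGB2 with ITGA4 and 0.914 for CD48 with ITGA4. These values are given as a description, since the deviations within a group sum to 0 and are not independent. By the same measure ICAM3 had an r of 0.844 with CD48, 0.856 with ITGB2 and 0.754 with ITGA4. The replicate 1 ratio of ICAM3 was 0.909, 0.767 and 0.770 in vector, S136X and R58Q. Within the groups CD44 and CD58, whose lowest R58Q library was replicate 2, had an r of 0.713.

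**Figure D4:**
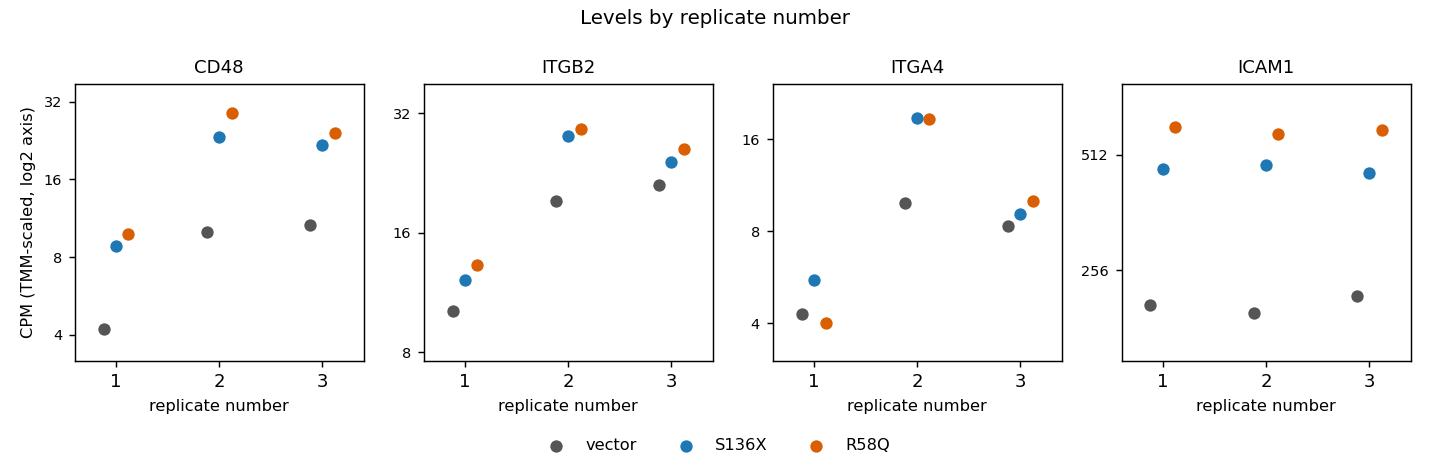
CPM (y axis, log2 scale) of CD48, ITGB2, ITGA4 and ICAM1 by replicate number, with 1 point per library, coloured by group and shifted sideways so that points do not cover each other. CD48, ITGB2 and ITGA4 are lowest at replicate 1 in every group, while ICAM1 is level across the numbers.

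Over the 9 libraries and 15859 other genes, the log2 CPM most like that of ICAM1 by Pearson's r was that of EBI3 (0.992), a cytokine subunit of IL-27 and IL-35. PPP1R15A (0.992), NFKBIB (0.990), MYO1C (0.990) and ECE1 (0.989) followed, of which PPP1R15A is a stress-induced phosphatase subunit, NFKBIB an NF-kB inhibitor, MYO1C a myosin and ECE1 the protease that makes endothelin. CD58 had rank 15 (r = 0.987) and CD44 rank 25 (r = 0.986), whereas CD48 had rank 2846 (r = 0.659). ICAM3 (0.488), ITGB2 (0.343) and ITGA4 (0.230) followed, and ITGAL (-0.09) and ICAM2 (-0.47) had an r below 0. Libraries of a group are alike for many genes, so the 9 points are not independent.

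In 7 lists of other adhesion genes, which held 119 genes of which 81 were tested, 5 rose and 3 fell in S136X against vector, and 11 rose and 3 fell in R58Q, beside the 3.87% and 7.63% of all genes called. With the block 8 rose and 7 fell in S136X and 13 rose and 5 fell in R58Q, beside 6.53% and 10.7% of all genes. Their median log2 changes without the block were -0.05 and -0.04, against -0.02 and -0.03 over all genes. Of the CD2 and SLAM receptor family, which includes the partners of CD58 and CD48, 4 of 9 were tested and SLAMF7, a self-binding receptor of plasma cells and NK cells, rose (log2 2.50 and 3.03, edgeR adjusted p = 0.000478 and 0.000139). Among 23 other integrin subunits, 0 of 10 tested were called in S136X, and in R58Q 1 of 11 rose and 1 fell. ITGB8 had a log2 change of 0.60 in S136X (edgeR adjusted p = 0.175) and 1.59 in R58Q (edgeR adjusted p = 0.00571). With the block ITGB8 was called in S136X too (log2 0.62, edgeR adjusted p = 0.00754) and between the mutants (log2 0.97 higher in R58Q, edgeR adjusted p = 3.09e-08). ITGA6 had a log2 change of -1.19 in S136X (edgeR adjusted p = 0.154) and -1.17 in R58Q (edgeR adjusted p = 0.0457), nearly the same size. It had only 15 to 26 counts per library in vector, 3 to 13 in S136X and 7 to 9 in R58Q, and was not tested between the mutants.

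Among 18 other immunoglobulin-type ligands 0 of 14 rose and 1 fell in S136X, the homophilic PECAM1 (log2 -0.75, edgeR adjusted p = 0.0442), and 3 of 13 rose in R58Q. The latter included the junctional JAM2 (log2 1.71, edgeR adjusted p = 0.0408, against 1.03 in S136X, edgeR adjusted p = 0.246) and ICAM4 (log2 0.96, edgeR adjusted p = 0.028, against 0.70 in S136X, edgeR adjusted p = 0.128), the LFA-1 ligand of red cells. JAM2 had 4 to 14 counts per library in vector and 17 to 27 in R58Q. Neither JAM2 nor ICAM4 was called between the mutants, and PECAM1 had a log2 change of -0.45 in R58Q (edgeR adjusted p = 0.0687). The remaining ligand that rose in R58Q was ALCAM (log2 0.87, edgeR adjusted p = 0.0014, against 0.15 in S136X, edgeR adjusted p = 0.295). ALCAM was called between the mutants as well (log2 0.72 higher in R58Q, edgeR adjusted p = 0.0376). Of 26 tested genes of integrin activation and linkage, 1 was called higher in S136X and 3 in R58Q, and 0 were called lower in either. Changes under 1.5-fold went both ways. RASGRP2 had log2 changes of -0.54 in S136X (edgeR adjusted p = 0.00754) and -0.51 in R58Q (edgeR adjusted p = 0.0224). VCL was lower too (log2 -0.27 and -0.40, edgeR adjusted p = 0.026 and 0.00291), and APBB1IP was higher (log2 0.36 and 0.35, edgeR adjusted p = 0.0129 and 0.0131). PTK2B, a focal adhesion kinase, rose in both (log2 0.75 and 0.99), and RASGRP3, a Rap1 activator, and STK4, a kinase that regulates LFA-1, rose in R58Q (log2 1.18 and 0.59). In S136X their log2 changes were 0.91 (edgeR adjusted p = 0.0556) and 0.49 (under 1.5-fold), and neither was called between the mutants. With the block RASGRP3 was called in S136X as well (log2 0.89, edgeR adjusted p = 9.63e-05) and STK4, at log2 0.58, fell just short of 1.5-fold in R58Q.

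Of the 12 tested genes around CD44 and hyaluronan, the 1 that passed in each mutant was STAB1, a scavenger receptor for hyaluronan, which fell (log2 -1.11 and -0.99, edgeR adjusted p = 0.0267 and 0.0449). Of 7 tested selectins and selectin ligand genes, SELPLG, which encodes the P-selectin ligand, fell in both mutants (log2 -1.11 and -1.14, edgeR adjusted p = 0.00521 and 0.00239). In that list ST3GAL4, a sialyltransferase of selectin ligands, rose in both (log2 0.70 and 0.97). Of 8 tested tetraspanins linked to adhesion, 2 rose in each mutant, TSPAN33, a marker of activated B cells (log2 1.12 and 1.83), and CD82, a partner of integrins (log2 1.26 and 1.06). TSPAN33 was also called between the mutants (log2 0.70 higher in R58Q, edgeR adjusted p = 0.024). Without the block, TSPAN33 and ALCAM were the 2 genes called there of 80 tested in the 7 lists, beside 0.434% of all genes.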

How the data were processed

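Libraries were made from polyA-selected RNA (Nugen Universal Plus mRNA-Seq) and sequenced on a NovaSeq in 2 runs whose reads were combined. The authors deposited raw read counts per gene, used here, and 9 columns of normalized values, not used. Per the labels the build is hg38, and the submitters' processing notes name cutadapt, STAR and Picard. The counting program, annotation and strand setting are not given in the sources used here. Of the gene identifiers, 96.3% are in GENCODE 29.

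Each comparison used its 6 libraries in edgeR 4.0.16 (R 4.3.3): filterByExpr (minimum count 10, minimum total 15), TMM factors, the quasi-likelihood F test and Benjamini-Hochberg adjustment over all genes tested. Standard errors are the log2 fold change over the root of F. Procedures were tested on simulated data. The study calls the replicates biologic, and p-values measure the spread between these libraries. Counts of replicates differed beyond sampling error (chi-square divided by its degrees of freedom, 7.91 to 25.6), so no library was merged with another. The limit of 3 counts for a count of 0 covers counting error only.

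The labels number replicates 1 to 3. All 9 correlations between same-numbered libraries of deviations from the group means were over 0.1 (0.143 to 0.627, median 0.425). By that rule the numbers were taken to pair the libraries. Of 18 correlations between different numbers, 2 were over 0.1 as well (highest 0.169), and the median was -0.2505. Deviations within a group sum to 0, so this negative median is not separate evidence of pairing. The pairing was weakest for vector replicate 2, at 0.143 with S136X and 0.163 with R58Q. The main fit, set before this was known, has no block, and the fit with the replicate block is given as an alternative.

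The adhesion genes and gene lists were chosen with earlier results of these data known. Named were all 9 members, BCL10, up to 3 called genes per list with the largest mean change, ITGB1, ITGB7, CD2, CD244 and the 5 genes most like ICAM1. ALCAM was named in addition because it was called between the mutants, and CD81, CD47 and RAPGEF1 as examples from the lists. RASGRP2, VCL and APBB1IP were named as examples of changes under 1.5-fold. Alternatives were DESeq2 1.42.0, other scalings, filters, thresholds and designs, the replicate block and each replicate left out. Leaving out replicate 1 of both groups was added after seeing the data.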

Additional observations from a re-analysis of the deposited data

Results flagged for a closer look

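The effect of the mutants on 4 adhesion genes differed between R58Q and S136X by the direct test with the replicate number as a block. The rule was an edgeR adjusted p under 0.05 at any size of change. The share of all genes that passed this rule was not counted. In the lists of other adhesion genes some passed it too, among them CD47, CD81 and RAPGEF1, and others did not. Passing it was therefore not particular to the 4 genes. The log2 difference was 0.87 for CD44, 0.48 for CD58 and 0.32 for ICAM1, all higher in R58Q in 3 of 3 same-numbered pairs, as for 25.4% of all genes. It was -0.50 for ITGAL, lower in R58Q in 3 of 3 pairs, as for 20.9% of all genes. CD44 alone of the 4 genes also passed 1.5-fold, as did 2.94% of all genes in that fit. The date in the column names cannot be told apart from R58Q.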

How the results depend on the processing

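The number of the 9 adhesion genes called against vector was 3 or 4 under each of 17 alternatives for either mutant, and ICAM1, CD44 and CD58 were called higher in all of them. Of 459 values of single adhesion genes under alternatives, 428 kept their direction and side of the threshold, 15 passed it in addition, 0 were lost and 16, none of them called, turned sign. The 15 were CD48 against vector (8 values, among them log2 1.12 and 1.35 with no filter on low counts, and 1.14 and 1.37 without replicate 1 of both groups), CD44 between the mutants (6 values, among them the replicate block) and CD58 between the mutants without replicate 2 of R58Q. The sign turned for ITGA4 against vector without replicate 2 of S136X (-0.026, range to 0.89) or of R58Q (-0.10, range to 0.94). Between the mutants and leaving out 1 replicate, it turned in ICAM2 (range -0.027 to 0.17), ICAM3 (-0.053 to 0.18), CD48 (-0.11 to 0.55), ITGB2 (-0.20 to 0.36) and ITGA4 (-0.68 to 0.57), and without replicate 1 of both groups in ICAM2 (-0.012) and ITGA4 (0.033). The cause was not tested.

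Adhesion genes called between the mutants numbered 0 in edgeR, 1 (CD44) with DESeq2, with total counts, with no filter, with all 9 libraries in one fit and with the replicate block, and 0 to 2 when 1 replicate was left out. Over all genes, S136X against vector gave 601 calls, 934 with no filter, 1014 with the replicate block, 243 at 2-fold, 262 at an adjusted p under 0.01 and 279 to 705 leaving out 1 replicate. R58Q against vector gave 1178, 526 at 2-fold, 596 at 0.01 and 719 to 1248 leaving out 1 replicate. R58Q against S136X gave 66, 146 with DESeq2, 165 with no filter, 114 with all 9 libraries, 446 with the block, 39 at 2-fold, 15 at 0.01, 30 without replicate 1 of both groups and 5 to 63 leaving out 1 replicate. The counts over all genes fell by over 1.5 times without vector replicate 2 (279 and 719) or replicate 3 of the mutant (349 and 778), and between the mutants without any 1 library other than replicate 2 of R58Q (63). With total counts the split of higher and lower calls moved from 319 and 282 to 257 and 368 in S136X and from 632 and 546 to 549 and 741 in R58Q (upper-quartile factors 277 and 333, 542 and 772), and none of the 9 changed direction with the scaling. With the block, of the 9 genes CD48 and CD44 changed their call and the other 7 did not. CD48 and ITGA4 had the lowest counts of the 9 genes, 141 and 120 in their lowest libraries. The part of low counts in the spread of these genes was not tested.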
